A study of Mus musculus with 12 samples.

Results

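Core interferon-stimulated genes are a set of 32 mouse genes that cells switch on after type I interferon, chosen here by name; interferon-inducible GTPases, the Trim30 genes and the nucleic acid sensors were kept apart. Of the 32, 29 had a probe set annotated to that gene alone and were measured, among 19938 genes in all. Isg15 shared its probe set with Gm9706 and Ifi204 shared its with Ifi211, so neither was read, and Ifi44 was not analysed here. Irf1 had more than 1 probe set of its own and was read from the brightest of them on average.

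The RNA came from mouse embryonic fibroblasts, primary cells taken from embryos, on 12 Affymetrix arrays in 4 groups of 3. S/S cells are homozygous for a mutant Rb1 allele called S, and L/L cells for one called L; each was measured with its own wild type (Rb1 +/+), called S wild type and L wild type here, which gives an S set and an L set of 6 arrays. The labels do not say what either allele changes. All groups were cultured to passage 4 in 10% serum and then held in 0.1% serum for 72 h, a state the labels call arrested, wild type included. The series title concerns silencing of endogenous retroelements by a tumor suppressor. Whether a numbered array is a separate embryo or culture is not stated, so the p-values reflect only how far these samples spread. In both groups of the L set array 1 had a male pattern of sex-linked genes and arrays 2 and 3 a female one. Array 1 there thus came from another embryo than arrays 2 and 3. Between the other arrays of a group the spread may be technical.

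Type I interferon binds a receptor pair at the cell surface, and the kinases Jak1 and Tyk2 then activate Stat2, which with Irf9 is part of the factor ISGF3. ISGF3 binds the interferon-stimulated response element (ISRE) in the promoters of antiviral genes. Irf7, itself a target, drives further interferon synthesis, and Usp18 damps the receptor. Fibroblasts answer interferon, and so do macrophages, which cultures from whole embryos can hold.

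Promoters were searched for the ISRE core, because it is the letter pattern these genes are known for. RefSeq windows of 250 bases before to 50 bases after the start (GRCm38.p6) were found for 23 of the 29 genes, 26 windows in all. Usp18, Oas2, Parp9, Parp14, Rtp4 and Ifi27l2a had no entry. The core, GAAA, any 2 bases and GAAA again, was read on both strands with overlapping matches counted, and it lay in a window of 9 of 23 genes (39.1%), against 3.99% of 27025 genes in the whole table. The gamma-activated site TTCNNNGAA, a palindrome, lay in 6 of 23 genes (26.1%), against 9.55% of all. The genes with an ISRE core were Stat2, Eif2ak2, Ifit1, Ifit3, Oas1a, Oas3, Rsad2, Ifi205 and Cxcl10. The 5 of these among the transcription factors and the largest differences in either mutant are shown from 250 bases before to 30 bases after the start, 280 bases each, 5′ to 3′ along the gene, with ISRE matches on either strand in capitals.
Ifit1: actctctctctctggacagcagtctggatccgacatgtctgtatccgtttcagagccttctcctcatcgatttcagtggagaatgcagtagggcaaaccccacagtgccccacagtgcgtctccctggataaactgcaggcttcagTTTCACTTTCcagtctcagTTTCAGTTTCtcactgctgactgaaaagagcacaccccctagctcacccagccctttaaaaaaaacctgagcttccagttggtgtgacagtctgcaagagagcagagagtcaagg
Eif2ak2: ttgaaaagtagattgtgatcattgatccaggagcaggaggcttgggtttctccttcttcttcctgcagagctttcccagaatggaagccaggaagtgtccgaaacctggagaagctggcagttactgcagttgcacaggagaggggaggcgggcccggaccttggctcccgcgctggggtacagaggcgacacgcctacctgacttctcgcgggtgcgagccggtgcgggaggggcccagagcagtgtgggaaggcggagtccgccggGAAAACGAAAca
Ifi205: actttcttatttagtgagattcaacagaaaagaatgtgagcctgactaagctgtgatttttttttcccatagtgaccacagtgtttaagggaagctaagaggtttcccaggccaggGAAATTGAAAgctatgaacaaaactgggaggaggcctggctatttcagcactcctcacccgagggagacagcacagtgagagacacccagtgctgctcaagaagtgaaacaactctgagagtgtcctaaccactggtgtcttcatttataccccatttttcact
Ifit3: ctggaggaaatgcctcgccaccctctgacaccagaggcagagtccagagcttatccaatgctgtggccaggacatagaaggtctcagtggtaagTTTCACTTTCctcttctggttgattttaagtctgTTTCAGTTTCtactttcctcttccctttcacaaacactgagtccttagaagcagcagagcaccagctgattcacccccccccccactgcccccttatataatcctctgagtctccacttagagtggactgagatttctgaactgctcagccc
Stat2: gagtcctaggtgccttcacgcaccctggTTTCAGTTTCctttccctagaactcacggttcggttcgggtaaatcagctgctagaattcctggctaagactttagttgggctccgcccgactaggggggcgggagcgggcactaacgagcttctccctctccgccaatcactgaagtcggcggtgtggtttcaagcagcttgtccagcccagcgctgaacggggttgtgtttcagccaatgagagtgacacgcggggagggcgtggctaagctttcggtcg
These stretches are chr19:34640639-34640918, plus strand for Ifit1, chr17:78882543-78882822, minus strand for Eif2ak2, chr1:174031726-174032005, minus strand for Ifi205, chr19:34583279-34583558, plus strand for Ifit3 and chr10:128270248-128270527, plus strand for Stat2. Ifit1 and Ifit3, neighbours on chromosome 19, each hold 2 matches on the minus strand with the same pair of letter strings, TTTCACTTTC followed by TTTCAGTTTC. Counted in bases from the start, they begin at −104 and −85 in Ifit1 and at −156 and −122 in Ifit3. The single Stat2 match begins at −222. The Eif2ak2 match lies after the start, and Ifi205 has a second match that ends beyond the printed stretch. A match is a letter pattern and was not tested as a bound site.

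**Figure D1:**
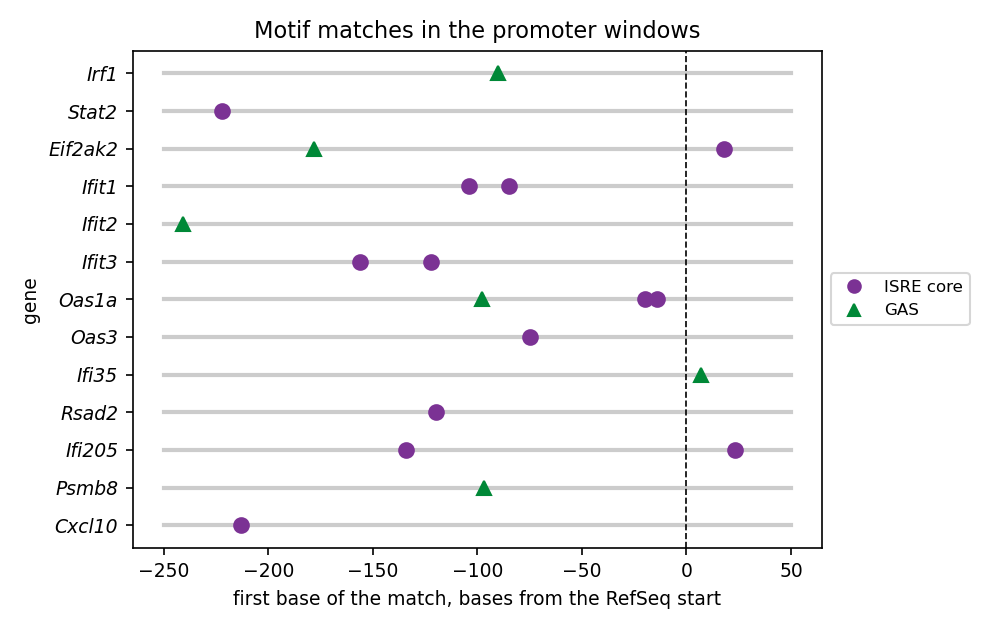
Position of each ISRE core (circles) and gamma-activated site (triangles) in the RefSeq promoter windows, for the genes with at least 1 match; the x axis is the distance in bases of the first matched base from the start (dashed line), and grey lines span the window from 250 bases before to 50 after. The 2 ISRE matches of Ifit1 lie between those of Ifit3 and the start.

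Array medians were 6.85 to 7.01 in deposited log2 RMA units. Array 1 of S wild type stood apart, with a residual SD of 0.325 against 0.0933 to 0.193 in the other 11. Array 1 of both groups of the L set had a male pattern of Xist and Y-linked genes, and the other 10 arrays a female one. The number of arrays limits the precision. Rb1 itself read 8.34 to 8.89 in S wild type, 9.35 to 9.72 in S/S, 8.61 to 9.23 in L wild type and 9.23 to 9.39 in L/L; as the labels do not say what the alleles alter, this does not check the genotypes. Genes expected of fibroblasts were present, the 13 markers measured having a mean log2 value of 11.1 to 11.6 in every array, and lymphocyte and red cell markers had means of 5.15 to 5.78 and 5.67 to 6.24. In the 10 female arrays the Y-linked genes, which have no target there, read 3.82 to 5.51. The values of the 29 genes ran from 5.47 to 10.60, and only Cmpk2 and Rsad2 had a mean under 6, near that empty-probe level. Oas3 (6.27), Herc6 (6.30) and Ifi205 (6.39) had the next lowest means, not far above the highest red cell marker mean of 6.24.

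The first comparison asked whether these genes differ between S/S cells and their wild type. None of the 29 genes passed in S/S (limma, adjusted p under 0.05 over all genes), where 0.12% of all genes did (0.0903% higher and 0.0301% lower). By value, 23 of 29 genes were higher in S/S and 6 lower, with a median log2 difference of 0.17 against −0.04 over all genes. For 8 genes all 3 S/S arrays lay above all 3 wild-type arrays (5.49% of all genes did so), and for 1 gene they lay below (6.29% of all genes). At an unadjusted p under 0.05 there were 4 higher, Ifi205, Cxcl10, Ifit2 and Herc6, and 0 lower, against 1039 higher and 982 lower of 19938 genes. With array weights estimated from the residuals 1 gene passed, Cxcl10; the S wild-type arrays then weighed 0.077, 5.875 and 0.794, so that arm was nearly array 2 alone, the lowest of the 3 for Cxcl10. In every fit that left out a single array 0 passed.

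Ifit1 and Usp18 held the largest S/S differences. Ifit1 encodes a protein that binds foreign RNA caps and blocks their translation. It read 8.82, 8.76 and 8.91 in S wild type and 9.62, 9.85 and 9.24 in S/S. The groups did not overlap, and the means were 8.83 ± 0.08 and 9.57 ± 0.30 (SD, n = 3 each), a log2 difference of 0.74 (SE 0.35, 1.67-fold). Its adjusted p in limma was 0.506. Ifit3, which stabilises Ifit1 on RNA, read 9.06, 9.11 and 9.30 in S wild type and 9.81, 9.90 and 9.57 in S/S. Again every S/S array was higher, by 0.60 on average (SE 0.29, adjusted p = 0.514 in limma). Ifit2 read 6.80, 7.59 and 7.59 in S wild type and 7.95, 7.93 and 7.59 in S/S, where the groups met at 7.59, and differed by 0.50 (SE 0.21, adjusted p = 0.454 in limma). Without array 1 of S wild type the Ifit2 difference was 0.23.

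Usp18, the protease that removes ISG15 from proteins and restrains the interferon receptor, read 9.45, 9.12 and 9.38 in S wild type and 9.77, 10.16 and 10.10 in S/S. All 3 S/S arrays were higher, by 0.70 on average (SE 0.35, adjusted p = 0.516 in limma). Herc6, the mouse ligase that attaches ISG15, read 5.81, 6.03 and 6.21 in S wild type and 6.59, 6.51 and 6.01 in S/S, so its groups overlapped (difference 0.35, SE 0.15).

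Ifi205, a member of the HIN-200 family of DNA-binding proteins, had the smallest S/S p of the 29. It read 6.0, 5.98 and 6.11 in S wild type and 6.92, 6.70 and 6.44 in S/S, a difference of 0.66 (SE 0.18, adjusted p = 0.24 in limma). The groups did not overlap. HIN-200 genes are close copies of each other in a cluster, so signal from a relative cannot be told apart here.

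Eif2ak2 encodes PKR, a kinase that stops translation when it meets double-stranded RNA. Its S/S difference of 0.66 (SE 0.32) turned on array 1 of the wild type, the array that stood apart: wild type read 7.21, 8.36 and 8.72, and S/S 8.42, 9.34 and 8.5. The difference without that array was 0.22, and the remaining wild-type arrays overlapped S/S. Rtp4, a chaperone of membrane receptors with antiviral activity, read 7.40, 7.81 and 7.89 in S wild type and 8.27, 8.58 and 8.09 in S/S. No S/S array overlapped wild type for Rtp4, and the difference was 0.61 (SE 0.39, adjusted p = 0.575 in limma).

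Of the transcription factors that drive the response, Stat2, Irf9 and Irf1 differed little in S/S, and Irf7 differed more. Stat2 read 9.51, 9.54 and 9.53 in S wild type and 9.45, 9.64 and 9.63 in S/S, a difference of 0.05 (SE 0.18). Irf9, its DNA-binding partner, read 9.68, 9.78 and 9.90 in S wild type and 9.70, 9.91 and 9.96 in S/S (0.07, SE 0.15). Irf1, which also answers interferon gamma, read 8.25, 8.69 and 8.51 in S wild type and 8.39, 8.43 and 8.73 in S/S (0.03, SE 0.15). All 3 overlapped, and each took the opposite sign in at least 2 alternatives. Irf7 read 7.86, 7.83 and 8.14 in S wild type and 7.90, 8.58 and 8.44 in S/S, overlapping through S/S array 1 (0.36, SE 0.28).

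The remaining RNA-sensing genes differed less in S/S. Oas1a, Oas2 and Oas3 make the 2-5A signal that activates RNase L, and their S/S differences were −0.14, 0.04 and −0.13. Oas1a and its near copy Oas1g share a further probe set, which was left out. Oasl1 and Oasl2, related proteins, differed by −0.24 and 0.37, and for Oasl2 no S/S array overlapped wild type. Antigen processing genes had small differences of either sign: the immunoproteasome subunits Psmb8 (−0.07) and Psmb9 (−0.19), and the peptide transporter gene Tap1 (0.15). The mono-ADP-ribosyltransferase family genes Parp9 and Parp14 differed by 0.10 and 0.17. Of the other antiviral genes, Samd9l (0.38), Xaf1 (0.36), Rsad2 (0.19), Ifi35 (0.17) and Cmpk2 (0.16) were higher by value, and Ifi27l2a was lower (−0.22, with no overlap: 6.69, 6.63 and 6.64 against 6.53, 6.28 and 6.48). Rsad2 encodes viperin, which makes a chain-terminating nucleotide, and Cmpk2 is its neighbour and supplies its substrate. Cxcl10, a chemokine that attracts T cells, read 8.2, 7.70 and 8.30 in S wild type and 8.55, 8.32 and 8.68 in S/S, without overlap (0.45, SE 0.16, adjusted p = 0.39 in limma).

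**Figure D2:**
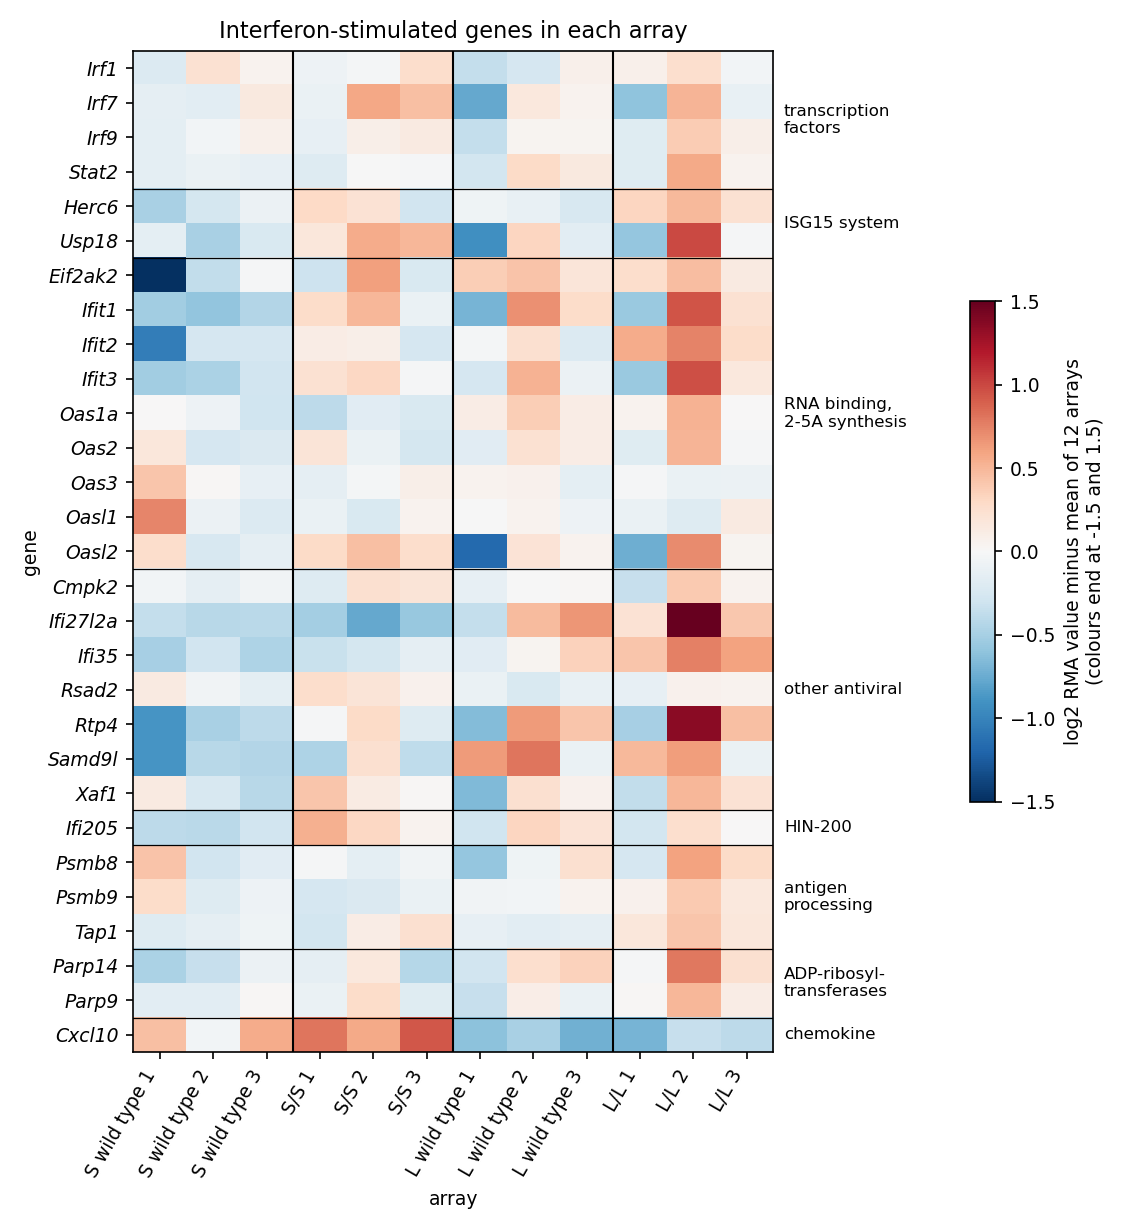
Each of the 29 genes (rows, grouped by role) in each of the 12 arrays (columns), as the log2 RMA value minus that gene's mean over 12 arrays; red is higher, blue lower, and colours end at −1.5 and 1.5. L/L array 2 is the highest array for 20 of the 29 genes.

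Macrophage markers were higher by value in S/S. Cd68, a lysosomal protein of macrophages, read 9.46, 9.15 and 9.33 in S wild type and 10.63, 10.22 and 10.75 in S/S. Cd53, a leukocyte tetraspanin, read 6.85, 7.77 and 8.15 and then 8.78, 8.90 and 8.93. Itgam, the integrin CD11b, read 6.55, 6.46 and 6.59 and then 7.20, 7.29 and 7.33. None of the 3 overlapped between the groups, and none passed. All 28 macrophage and myeloid markers measured were higher by value in S/S (median 0.68), and for 23 the groups did not overlap (5.49% of all genes were higher without overlap). Their mean level was 7.57 to 7.76 in S wild type and 8.24 to 8.33 in S/S. Endothelial markers differed too: the mean of the 9 measured was 7.20 to 7.28 in S wild type and 7.43 to 7.52 in S/S, without overlap, though their median difference was −0.06. Of the 9, 4 were higher by value and 5 lower, without overlap for 3 and 2 of them (5.49% and 6.29% of all genes). Flt1 (0.72), Emcn (1.62) and Eng (0.40) were among the higher and Egfl7 (−0.31) among the lower, and none of the 9 passed. Their part in the values of the 29 genes was not tested. In bulk RNA, more cells of a type and more RNA per cell cannot be told apart. With the mean of Cd68, Cd53 and Itgam as a covariate, the median S/S difference of the 29 genes was −0.05, that of all genes also −0.05, and Rtp4 (−0.08) and Irf7 (−0.10) turned negative. Under the same covariate Ifi205 kept 0.41, Eif2ak2 0.64 and Ifit2 0.54, while Ifit1 came to 0.18 and Usp18 to 0.20. In the S set that covariate takes values that do not overlap between the groups, so its share in the difference and that of the allele cannot be told apart there.

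L/L cells were next compared with L wild type. None of the 29 genes passed in L/L either (limma), where 0.0401% of all genes did. By value 23 of 29 were higher and 6 lower, with a median of 0.19 against 0.02 over all genes. That median was 0.0060 without L/L array 2, 0.02 without L wild type array 1 and 0.38 without L/L array 1. In 5 genes all L/L arrays lay above all wild-type arrays (9.71% of all genes did so), namely Herc6, Ifit2, Ifi35, Psmb9 and Tap1, and in 0 genes below (5.1% of all genes). At an unadjusted p under 0.05 there were 4 higher, Ifi35, Herc6, Tap1 and Ifit2, and 0 lower, against 535 higher and 116 lower of 19938 genes. With array weights Ifi35, Herc6 and Tap1 passed, and in each fit without a single array 0 did.

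Ifi35, Herc6 and Tap1 had the smallest p-values of the 29 genes in this comparison (limma). Their within-group SDs of 0.17, 0.20 and 0.16 were below the median of the 29 genes, 0.26. Ifi35, a leucine-zipper protein released as a danger signal, read 8.52, 8.73 and 9.03 in L wild type and 9.10, 9.44 and 9.28 in L/L, with means of 8.76 ± 0.26 and 9.27 ± 0.17 (SD, n = 3 each). The groups did not overlap, and the difference was 0.51 (SE 0.14, adjusted p = 0.467 in limma). Tap1 was nearly constant in L wild type at 8.95, 8.91 and 8.93 and read 9.24, 9.49 and 9.24 in L/L (0.39, SE 0.13, adjusted p = 0.868 in limma). Psmb9, which shares a divergent promoter region with Tap1, differed by 0.22, and Psmb8 by 0.35 with overlap. Herc6 read 6.23, 6.18 and 6.05 in L wild type and 6.62, 6.78 and 6.53 in L/L, all 3 higher (0.49, SE 0.15, adjusted p = 0.783 in limma).

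Ifit2 was the 1 gene whose mutant arrays lay above wild type in both sets, though in the S set the groups met at 7.59. In the L set it read 7.81, 8.08 and 7.63 in L wild type and 8.40, 8.59 and 8.11 in L/L (0.52, SE 0.21). Its neighbours Ifit1 and Ifit3 spread far more in the L set. Ifit1 read 8.65, 10.04 and 9.62 in L wild type and 8.79, 10.29 and 9.58 in L/L (0.12, SE 0.35). Ifit3 read 9.33, 10.11 and 9.49 in L wild type and 9.03, 10.55 and 9.74 in L/L (0.13, SE 0.29). Both groups were lowest in array 1 and highest in array 2 for these genes, and for Ifit3 L/L reached past L wild type at both ends.

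Usp18 and Rtp4 showed the same order of arrays in the L set. Usp18 read 8.68, 9.93 and 9.45 in L wild type and 9.02, 10.60 and 9.59 in L/L (0.38, SE 0.35). Rtp4 read 7.63, 8.93 and 8.70 in L wild type and 7.79, 9.65 and 8.74 in L/L (0.31, SE 0.39). Ifi27l2a, which encodes a small interferon-induced membrane protein, read 6.69, 7.52 and 7.71 in L wild type and 7.27, 8.67 and 7.45 in L/L (0.49, SE 0.31). Without L/L array 2 the L/L difference was −0.05 for Usp18, −0.15 for Rtp4 and 0.05 for Ifi27l2a. Over the fits without single arrays these 3 differences ran up to 0.74, 0.77 and 0.75, so they depended on single arrays. L wild type array 1 was the lowest of its group for all 3.

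Eif2ak2 read 9.10, 9.15 and 8.91 in L wild type and 8.99, 9.19 and 8.87 in L/L, a difference of −0.04 (SE 0.32). Ifi205 read 6.09, 6.71 and 6.6 in L wild type and 6.12, 6.64 and 6.4 in L/L (−0.08, SE 0.18). Both overlapped throughout. The 4 transcription factors were all higher by value in L/L, with a median of 0.15 against 0.19 over the 29 genes. Stat2 read 9.38, 9.94 and 9.79 against 9.46, 10.21 and 9.70 (0.09, SE 0.18). Irf9 read 9.47, 9.86 and 9.87 against 9.65, 10.20 and 9.92 (0.19, SE 0.15). Irf7 read 7.22, 8.15 and 8.04 against 7.39, 8.5 and 7.88 (0.12, SE 0.28). Irf1 read 8.10, 8.21 and 8.54 against 8.54, 8.71 and 8.42 (0.27, SE 0.15). Each of these 4 genes overlapped between the groups.

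The remaining L/L differences ran from −0.11 to 0.32. They were 0.32 for Parp9, 0.31 for Oasl2, 0.24 for Xaf1, 0.23 for Parp14, 0.14 for Rsad2, 0.13 for Cxcl10, 0.07 for Cmpk2 and 0.05 for Oas2. Oas1a differed by −0.0035, Oasl1 by −0.04, Oas3 by −0.05 and Samd9l, an antiviral translation inhibitor, by −0.11. Macrophage markers were mostly lower by value in L/L: 26 of the 28 were lower by value, with a median of −0.31. The groups overlapped for every one of them (5.1% of all genes were lower without overlap). Their mean level was 7.12, 7.85 and 8.96 in L wild type and 6.83, 8.24 and 8.08 in L/L, so wild-type array 3 stood highest. With the marker level as a covariate the median L/L difference of the 29 genes was 0.28.

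**Figure D3:**
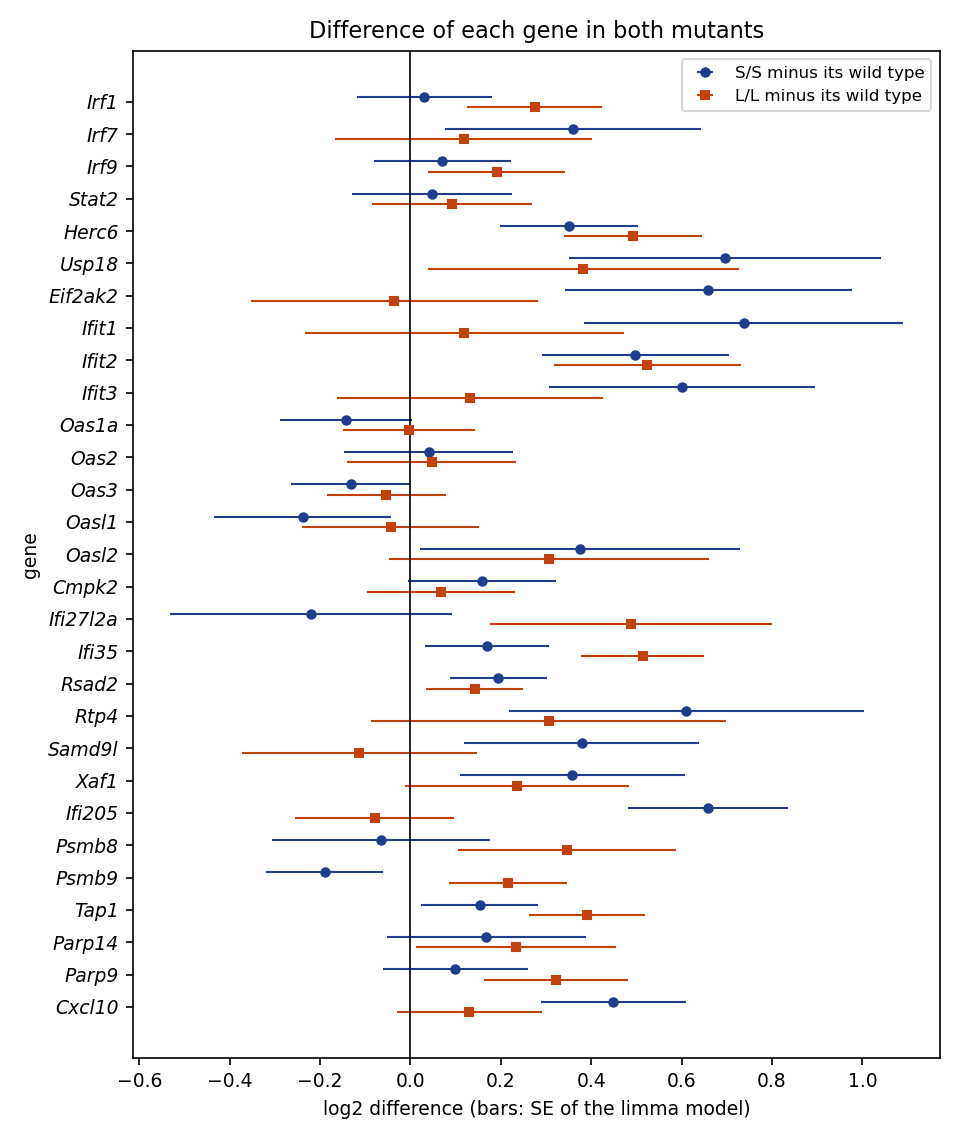
Log2 difference of each of the 29 genes in S/S (circles) and in L/L (squares), each against its own wild type, with the SE of the limma model as bars. Most points lie right of 0, and no gene passed in either mutant.

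The difference between the mutants' effects was tested for each gene as an interaction. None of the 29 passed (limma, 0.015% of all genes did, 0.00502% higher and 0.01% lower). Only 1 was higher, Ifi205, and 1 lower, Psmb9, at an unadjusted p under 0.05, against 541 and 755 of 19938 genes. The interaction was 0.74 (SE 0.25) for Ifi205, 0.70 (SE 0.45) for Eif2ak2 and 0.62 (SE 0.50) for Ifit1. It was −0.71 (SE 0.44) for Ifi27l2a, −0.41 (SE 0.18) for Psmb9 and −0.41 (SE 0.34) for Psmb8. For Eif2ak2 and Ifi27l2a a single array carried much of the interaction: the S/S difference of Eif2ak2 was 0.22 without array 1 of S wild type, and the L/L difference of Ifi27l2a 0.05 without L/L array 2. By value 20 genes were higher in both mutants and 3 lower in both (Oas1a, Oas3 and Oasl1).

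The wild-type groups, of the same genotype, differed from each other in 3 of the 29 genes (limma, 8.71% of all genes passed, 3.54% higher and 5.17% lower in the L set). All arrays of L wild type lay above S wild type for 6 genes and below for 1, against 11.5% and 16.1% of all genes. Samd9l rose in the L set, from 6.30, 6.77 and 6.75 to 7.83, 7.99 and 7.08, a difference of 1.03 (SE 0.26, adjusted p = 0.0291 in limma). Ifi35 rose by 0.49 (SE 0.14, adjusted p = 0.0425 in limma). Cxcl10 fell from 8.2, 7.70 and 8.30 to 7.14, 7.26 and 7.03, without overlap (−0.93, SE 0.16, adjusted p = 0.00544 in limma). Cxcl10 passed in all 22 alternatives, with differences of −1.11 to −0.59, Samd9l in 17 and Ifi35 in 10. Only Cxcl10 passed without array 1 of S wild type or without array 2 of L wild type. The Cxcl10 gap between the sets was larger than its difference in either mutant, except under array weights (−0.59 against 0.71 in S/S), and L/L, at 7.05, 7.41 and 7.36, stayed at the level of its set. Set, culture and array handling cannot be told apart here.

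**Figure D4:**
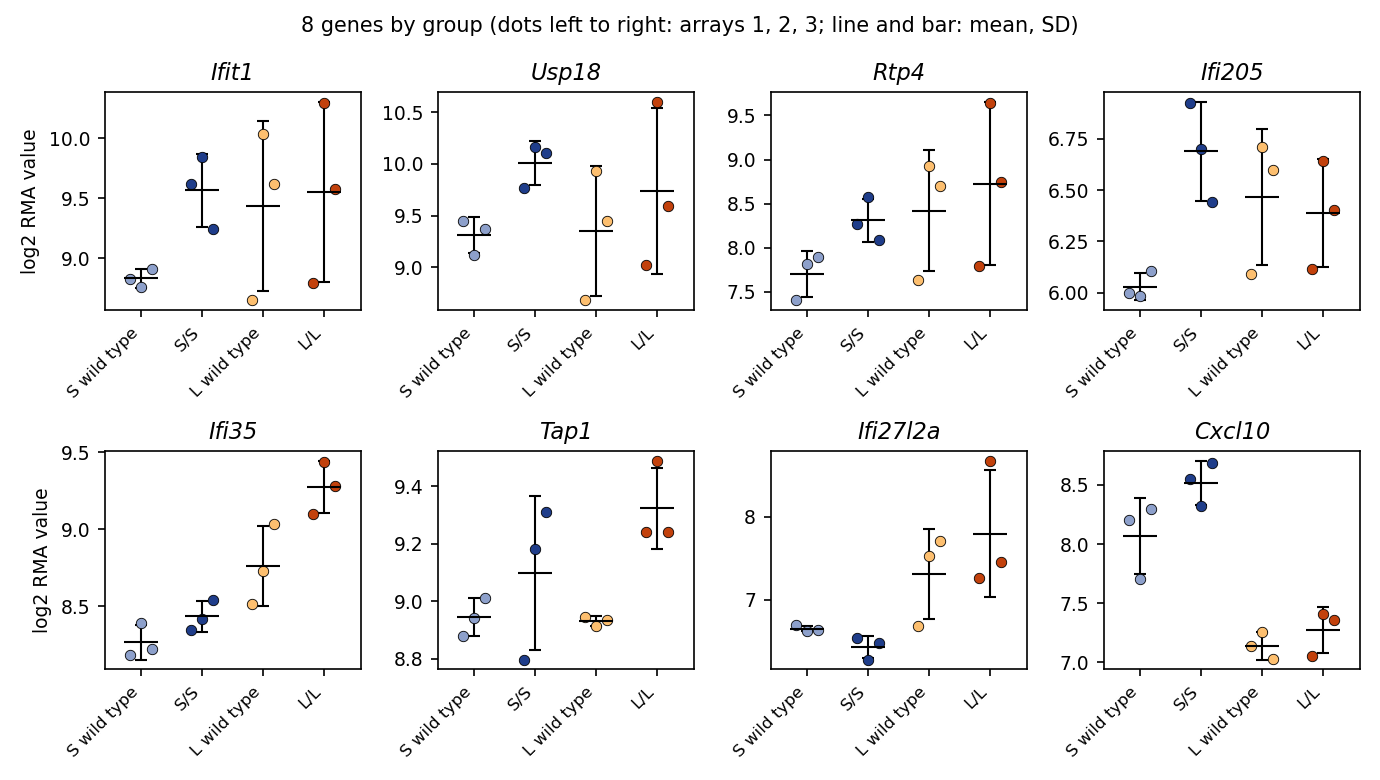
Log2 RMA values of 8 of the genes in each array, by group; dots from left to right are arrays 1, 2 and 3, and the line and bar are mean and SD (n = 3). Ifit1, Usp18 and Rtp4 run from low in array 1 to high in array 2 within both groups of the L set, while Cxcl10 separates the sets.

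Within groups these genes spread more than most. The median within-group SD was 0.26 over the 29 genes and 0.17 over all genes, and 13 of the 29 were above the 90th percentile of all genes (0.28). Rtp4 (0.61), Oasl2 (0.54), Ifit1 (0.54) and Usp18 (0.53) spread most, and Rsad2 (0.11) least. That spread was shared. Deviations from the group means correlated with the mean of the other 28 genes at a median r of 0.72 over 12 arrays, and at 0.8 or more for 11 genes. The highest values were those of Stat2 (0.97), Usp18 (0.97), Ifit1 (0.96), Rtp4 (0.95), Ifit3 (0.92), Oasl2 (0.92) and Irf7 (0.91). Stat2, with the highest r, ranged over only 0.84 across the 12 arrays. Oasl1 (−0.19), Oas3 (−0.18), Samd9l (0.14), Eif2ak2 (0.15), Rsad2 (0.16), Herc6 (0.17) and Ifit2 (0.24) had the lowest values. These are descriptions over arrays that share a fit and a normalization, with no p.

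Most of the shared spread lay in the L set. The mean over the 29 genes was 7.66, 8.12 and 7.99 in L wild type and 7.82, 8.48 and 8.06 in L/L, against 7.74, 7.71 and 7.78 in S wild type and 7.93, 8.08 and 7.93 in S/S. L/L array 2 was the highest of all 12 arrays for 20 of 29 genes, which held for 5.8% of all genes. Array 1 was the lowest of its group for 19 genes in L wild type and for 21 in L/L, against 35.3% and 34.5% of all genes.

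Each array was set against its macrophage marker level, the mean of Cd68, Cd53 and Itgam. In the L set that level was 7.32, 8.25 and 9.43 in L wild type and 6.82, 8.54 and 8.51 in L/L. Cd68 itself read 8.67, 9.79 and 11.27 in L wild type and 8.18, 10.18 and 10.52 in L/L. Over the 6 arrays of the L set the mean of the 29 genes had a Pearson r of 0.55 and a Spearman rho of 0.54 with it. Without the 2 arrays farthest from the median, array 1 of each group and also the male ones, r over the other 4 arrays was −0.41. When single arrays were left out r ran from 0.40 to 0.80, so the relation depended on which arrays were kept. The array with the most macrophage signal, wild type 3, was not the array with the most interferon-stimulated signal, L/L 2. In the S set the arrays fell into 2 clusters that are the groups themselves (7.62 to 8.02 and 8.80 to 9.0), so no correlation is given there. Within the L set r with the marker level was positive for 23 of 29 genes, with a median of 0.51, highest for Ifi205 (0.80), Irf7 (0.75) and Psmb8 (0.74). It was negative for Oas3 (−0.68), Samd9l (−0.54), Ifit2 (−0.34), Herc6 (−0.32), Eif2ak2 (−0.22) and Tap1 (−0.08). The part of macrophage RNA in these values was not tested.

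**Figure D5:**
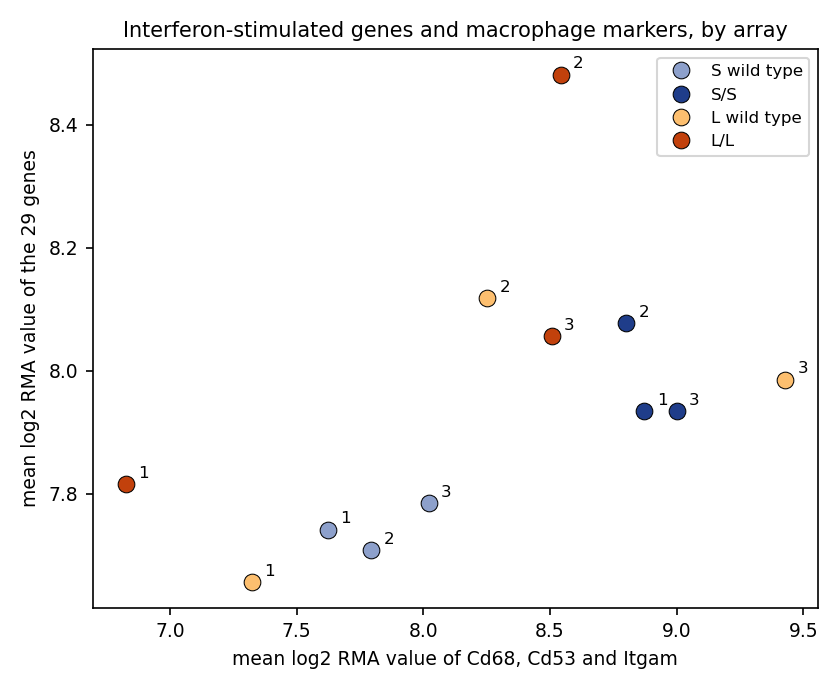
Mean log2 RMA value of the 29 genes (y axis) against that of the macrophage markers Cd68, Cd53 and Itgam (x axis) for each of the 12 arrays, numbered by replicate. S/S arrays lie right of and above their wild type; in the L set, L/L array 2 is highest and wild-type array 3 farthest right.

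Of 40 measured interferon, receptor, kinase, regulator and inhibitor genes, 0 passed in S/S (2 at an unadjusted p under 0.05 in limma, Il10rb higher and Ifnz lower) and 0 in L/L (1, Irf3 higher), with medians of −0.01 and −0.0016. Over all 19938 genes that unadjusted cut was passed by 1039 higher and 982 lower in S/S, and by 535 and 116 in L/L. Ifnb1, the interferon beta gene, read 5.22, 5.17 and 5.0 in S wild type, 4.88, 5.13 and 5.35 in S/S, 4.86, 5.10 and 5.04 in L wild type and 5.12, 5.11 and 5.08 in L/L. All of these fell inside the 3.82 to 5.51 read for Y-linked genes where no Y chromosome is expected. The 15 interferon genes measured had a median of −0.17 in S/S and 0.01 in L/L. Their mean level was 6.44, 5.983 and 5.98 in S wild type and 6.01, 5.93 and 6.03 in S/S, so only array 1 of S wild type, the one that stood apart, lay above S/S. The 6 receptor genes had medians of 0.10 and −0.06, and the 8 inhibitor genes 0.12 and 0.04.

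Further interferon-stimulated genes, 55 measured and listed apart from the 29, had a median of 0.04 in S/S and 0.10 in L/L, and 0 passed in either (4 and 5 higher and 0 lower at an unadjusted p under 0.05, a cut that 1039 and 535 of all 19938 genes passed as higher and 982 and 116 as lower). Their smallest p-values belonged to Cd274 (0.41), Pml (0.38) and Lgals9 (0.39) in S/S and to Pml (0.62), Phf11d (0.68) and Ube2l6 (0.58), the ISG15-conjugating enzyme, in L/L. Among 11 GTPase genes Irgm1 rose in S/S (0.90, adjusted p = 0.0367 in limma), and Mx2 (1.03) and Gbp5 (−0.43) did not pass. Irgm1 and Mx2 were also higher in L wild type than in S wild type, by 0.50 and 0.65. Both passed there (adjusted p = 0.0454 and 0.0440 in limma), as did 8.71% of all genes. Among 3 Trim30 genes Trim30d rose by 1.86 (adjusted p = 0.0162 in limma). The 24 sensing genes had medians of 0.06 and 0.09, and 0 passed (3 in each mutant at an unadjusted p under 0.05). Ddx58, Ifih1, Dhx58, Zbp1 and Trim25 stand in both the further list and the sensing list. Irf3 stands in both the signalling and the sensing list. No difference between these lists and the 29 genes was tested.

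By promoter letters, the 9 genes with an ISRE core had a median S/S difference of 0.45 and the 14 with a window but no match 0.16. In L/L the medians were 0.09 and 0.26. Genes with the core included both Ifit1 and Ifit3 on the high side and Oas1a and Oas3 below 0 in S/S. These medians are descriptions of a chosen list.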

How the data were processed

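RNA of 12 samples in 4 groups of 3 was measured on Affymetrix Mouse Gene 1.0 ST arrays. The authors deposited RMA values made with Partek, per the design text of the series. Its version, the genome build and which arrays were normalized together are not given in the sources used here. Deposited values ran from 2.43 to 14.67 and were taken to be log2, the usual RMA scale, which the design text does not state.

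Of 35556 probe sets, 21789 had 1 gene symbol, 1621 several and 12146 none in the platform annotation. Each gene was read from its probe set of highest mean, giving 19938 genes without a filter. limma 3.58.1 in R 4.3.3 fitted 4 group means (8 residual and 5.19 prior degrees of freedom), with two-sided tests and Benjamini-Hochberg adjustment over all genes. The fit was tested on simulated data whose differences were larger than any of the 29 genes had in either mutant. That test does not show whether smaller differences would be detected. Named array by array were the 6 largest differences in each mutant, anything that passed, and Irf1, Irf7, Irf9 and Stat2; Samd9l and Cxcl10 were added after their values were seen. Members and lists were chosen with earlier results of these data known. Alternatives left out arrays and changed scaling, filter, weights, block and covariate. Promoter sequences are RefSeq's (GRCm38.p6).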

Additional observations from a re-analysis of the deposited data

How the results depend on the processing

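The count of genes passing stayed at 0 in S/S and in L/L under every alternative except array weights (1 and 3), and at 0 for the difference between the mutants under all of them. The replicate block changed neither mutant's count. Same-numbered arrays deviated together with r of 0.388, 0.475 and −0.122 in the S set and 0.601, 0.058 and 0.359 in the L set, so the numbers were not taken as pairs. Between the wild types the count was 3, but 7 with the replicate block, 13 with array weights, 1 without the male arrays of the L set, 1 without both arrays numbered 1 of the S set, and 1 to 3 when single arrays were left out.

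The median S/S difference was 0.17, with 0.25 after quantile normalization, −0.0450 with the macrophage marker level as a covariate, and 0.16 to 0.25 without single arrays. The median for L/L ran from 0.0060 to 0.38 without single arrays. The median of the difference between the mutants was −0.03, −0.30 with that covariate, and −0.15 to 0.16 without single arrays. The median between the wild types was 0.05, 0.27 with array weights, 0.27 without the male arrays, and 0.0120 to 0.27 without single arrays. The correlation with the macrophage level in the L set ran from 0.40 to 0.80 without single arrays.

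Signs of uncalled genes turned as follows. In S/S the covariate gave Rtp4 −0.0786, Ifi35 −0.0509, Irf1 −0.12, Irf7 −0.10, Irf9 −0.16 and Stat2 −0.20, and quantile normalization gave Irf1 −0.0193, Irf9 −0.0016 and Stat2 −0.0254. Irf1 was also −0.0037 over its probe sets, −0.13 with array weights and −0.0211 without both arrays numbered 1, and −0.0849 to 0.13 without single arrays. In L/L array weights gave Ifit1 −0.22, Rtp4 −0.0087, Ifit3 −0.13, Irf7 −0.0849 and Stat2 −0.0395. Eif2ak2 was 0.0014 without the male arrays, and Ifi205 was 0.0058 with the covariate. Without single arrays the L/L ranges were −0.27 to 0.50 for Ifit1, −0.0485 to 0.74 for Usp18, −0.12 to 0.0382 for Eif2ak2, −0.27 to 0.0563 for Ifi205, −0.15 to 0.77 for Rtp4, −0.26 to 0.50 for Ifit3, −0.17 to 0.38 for Irf7 and −0.12 to 0.26 for Stat2. The causes were not tested, beyond fewer samples in the fits that leave arrays out. Over all genes, where 24 passed in S/S, 8 in L/L, 3 for the difference and 1736 between the wild types, array weights gave 415, 336, 293 and 6520 and the replicate block 37, 5, 3 and 2664. In S/S 2 to 38 passed without single arrays, 44 with each set fitted alone, 43 with the covariate, 37 without the male arrays and 3 without both arrays numbered 1. In L/L 2 to 26 passed without single arrays, 42 without both arrays numbered 1, 2 without the male arrays and 5 with each set alone. For the difference 3 to 21 passed without single arrays, 7 with the covariate, 7 after quantile normalization and 8 without both arrays numbered 1. Between the wild types 525 to 2078 passed without single arrays, 304 without the male ones and 2870 without both arrays numbered 1. The planned correlation in the S set is not given, since its arrays cluster by group. Signal near the empty-probe level limits Cmpk2 and Rsad2, and Oas3, Herc6 and Ifi205 had low means too.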

Other observations

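Of all genes, 8.71% passed between the wild-type groups, which share a genotype. Of the 55 further interferon-stimulated genes, Parp11 (0.51) and the tetherin gene Bst2 (0.86) rose in the L set and the exonuclease gene Isg20 fell (−0.61), by limma at an adjusted p of 0.0336, 0.0438 and 0.00628. Of the 40 signalling genes, the inhibitor genes Socs3 (−0.70) and Ptpn1 (−0.54) fell. Of the 24 sensing genes, Sting1 (−0.74), Ticam1 (−0.51) and Samhd1 (−0.45) fell. Nothing particular to these lists is read from the counts.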
